A study of Bos taurus with 6 samples.

Results

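The miR-30 family is a set of microRNAs (miRNAs) made from hairpins named miR-30a, miR-30b, miR-30c, miR-30d and miR-30e, and its rows were taken by name from the miRNA tables of fetal bovine serum (FBS). Both arms of each hairpin counted, and this gave 10 of the 502 names listed after mapping to the human genome and 9 of the 395 names listed after mapping to the mouse genome. The rule reads names alone and no measured value, although the family was picked with earlier results of these data known. FBS is the serum of unborn calves that is added to cell culture media. The samples were 3 pellets and 3 supernatants from the ultracentrifugation (UC) of FBS, with 40 mL spun at 100000 g for 24 h. Of each supernatant, 20 mL was reduced on filters of 3 kDa, and RNA was then isolated. The pellets hold extracellular vesicles (EVs) together with other heavy particles, and the supernatants hold what stayed in solution. All libraries shared the same preparation from 60 ng of kinase-treated RNA, with inserts of 15 to 65 nt, and no untreated or crude FBS was part of the series. The paper speaks of batches in its text and of aliquots in its figure legend, so p-values rest on the spread between samples that may be technical replicates.

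A miRNA hairpin gives a strand from its 5′ side (5p) and a strand from its 3′ side (3p), and usually a single strand is kept to guide the silencing of mRNAs. The 5p strands of the miR-30 family share the same seed, the stretch that pairs with target mRNAs, and therefore overlap in their targets. In human and mouse cells the family is known from epithelia, kidney and heart muscle, where it represses the epithelial to mesenchymal transition regulator SNAI1, the matrix growth factor CCN2 and the autophagy gene BECN1. The 3p strands do not carry the seed of the 5p strands, and those of miR-30a and miR-30e are nearly identical to each other. In the cattle assembly ARS-UCD2.0, used for names and neighbours alone, all 5 hairpin names had a gene. MIR30B and MIR30D lay next to each other with 0 annotated genes between them, as did MIR30C and MIR30E. Between MIR30A and MIR30F, a further cattle member, lay 1 gene. For MIR30F 0 rows were listed, but the listed names are human and mouse names alone. Whether its miRNA was present in FBS is therefore not known.

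The deposited unit, RPM, scales the reads of each library to a fixed total of mapped reads and is thus a share of the library. From the smallest value that many miRNAs of a library had in common, taken as 1 read, the human mapping held an estimated 867426 to 6660802 reads in the pellets and 3081111 to 5373233 in the supernatants. Pellet 1 was the deepest library and pellet 3 the shallowest. A count of 0 therefore allows up to 0.450 RPM in pellet 1, 1.91 RPM in pellet 2 and 3.46 RPM in pellet 3, and 0.558, 0.783 and 0.974 RPM in supernatants 1, 2 and 3 (3 reads, for counting error only).

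The family was found in all 6 libraries and took a larger share of the pellets. Its rows summed to 617, 96.9 and 169 RPM in pellets 1, 2 and 3 and to 11.4, 9.20 and 20.3 RPM in supernatants 1, 2 and 3. Every pellet was above every supernatant, although the pellets differed among themselves more than the supernatants did. The pellets averaged 294 ± 282 RPM, against 13.6 ± 5.88 RPM for the supernatants (SD over 3 libraries here and in all means below). Of all listed miRNA reads, the family's share was 0.290% ± 0.178 for pellets and 0.0250% ± 0.0121 for supernatants. Most miRNA reads in FBS come from the liver miRNA miR-122-5p and from miR-1246, so the share was also taken over the other miRNAs. There it was 3.33%, 0.789% and 2.49% in pellets 1, 2 and 3 and 0.437%, 0.392% and 0.728% in supernatants 1, 2 and 3. Pellet 2 was then close to supernatant 3. These sums describe the family and were not tested.

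Among the members, hsa-miR-30d-5p was the most abundant in 4 of the 6 libraries, at 483 RPM in pellet 1, 22.3 RPM in pellet 2, 97.99 RPM in pellet 3, and 0.186, 3.65 and 12.3 RPM in supernatants 1, 2 and 3. The lowest pellet was above the highest supernatant, and in both fractions the lowest and highest library were far apart. In reads, the values correspond to 3215, 35 and 85 reads in the pellets and to 1, 14 and 38 reads in the supernatants. The rank of miR-30d-5p among all listed names was 13 in pellet 1 and 19 in pellet 3, but 74 in pellet 2, and 160, 69 and 47 in supernatants 1, 2 and 3. With 201 ± 247 RPM, the pellet mean was 37.3-fold the supernatant mean of 5.39 ± 6.26 RPM. On the log2(RPM + 1) scale, miR-30d-5p rose by 4.63 in the pellets (standard error 1.23, 95% interval 1.82 to 7.44, adjusted p = 0.0229 from limma). The pellet mean was 60.2 RPM without pellet 1, and the supernatant mean was 1.92 RPM without supernatant 3. On this scale it had the largest log2 fold change of the 153 tested names. It ranked 6 with a pseudocount of 0.1 RPM, 4 with 10 RPM, 7 without pellet 1, 3 without pellet 3, 6 without supernatant 1, 3 when scaled to miRNAs other than miR-122-5p and miR-1246, and 2 with median-of-ratios scaling.

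hsa-miR-30e-5p followed the same order of libraries in the pellets. It stood at 73.6, 2.23 and 38.0 RPM in pellets 1, 2 and 3, was listed at 0 in supernatant 1, and stood at 0.535 and 3.57 RPM in supernatants 2 and 3. Supernatant 3 was above pellet 2, so the fractions overlapped. In pellet 2 the value corresponds to 3.50 reads, and in supernatants 2 and 3 to 2.05 and 11 reads. Its pellet mean was 37.9 ± 35.7 RPM and its supernatant mean 1.37 ± 1.93 RPM, with a log2 fold change of 3.46 (standard error 1.21, 95% interval 0.68 to 6.25, adjusted p = 0.0456 from limma). Without pellet 1 or pellet 3 the adjusted p from limma was 0.0990 and 0.0928, and the pellet mean without pellet 1 was 20.1 RPM. The supernatant mean was 0.267 RPM without supernatant 3 and 2.05 RPM without supernatant 1.

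hsa-miR-30a-5p had another order of libraries. Its values were 12.9, 46.8 and 10.4 RPM in pellets 1, 2 and 3 and 2.50, 1.83 and 1.79 RPM in supernatants 1, 2 and 3. Pellet 2, the lowest pellet for miR-30d-5p and miR-30e-5p, was the highest for miR-30a-5p, and the fractions did not overlap. The supernatants were close together, and 5.50 to 13.4 reads stood behind each. Its supernatant mean was 2.04 ± 0.401 RPM and its pellet mean 23.4 ± 20.3 RPM, or 11.6 RPM without pellet 2, with a log2 fold change of 2.70 (standard error 0.74, 95% interval 1.004 to 4.40, adjusted p = 0.0241 from limma).

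**Figure D1:**
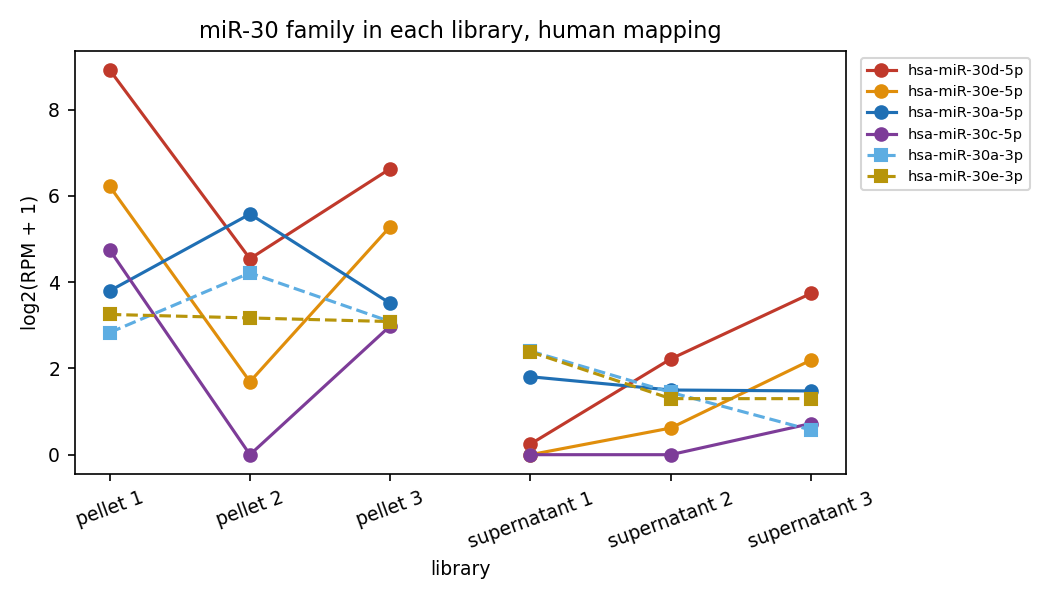
Levels of 6 miR-30 rows as log2(RPM + 1) in each library of the human mapping, with circles for 5p rows, squares for 3p rows, and lines that only join the values of a row within a fraction, since libraries have no order. In pellet 2 miR-30d-5p (22.3 RPM), miR-30e-5p (2.23 RPM) and miR-30c-5p (0 RPM) were at their lowest among the pellets, while miR-30a-5p (46.8 RPM) and miR-30a-3p (17.6 RPM) were at their highest.

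Of the 3p strands, those of miR-30a and miR-30e were found in all 6 libraries. hsa-miR-30a-3p was found at 6.12, 17.6 and 7.49 RPM in pellets 1, 2 and 3 and at 4.28, 1.72 and 0.487 RPM in supernatants 1, 2 and 3. hsa-miR-30e-3p was found at 8.52, 7.997 and 7.49 RPM in pellets 1, 2 and 3 and at 4.22, 1.46 and 1.46 RPM in supernatants 1, 2 and 3. In neither row did a pellet overlap with a supernatant. miR-30a-3p was again highest in pellet 2, like its own 5p strand. miR-30e-3p had nearly the same level in all 3 pellets, at 8.004 ± 0.514 RPM, whereas its 5p strand ranged from 2.23 to 73.6 RPM. Neither 3p row passed, with log2 fold changes of 1.90 for miR-30a-3p (95% interval 0.18 to 3.63, adjusted p = 0.0599 from limma) and 1.51 for miR-30e-3p (95% interval 0.041 to 2.98, adjusted p = 0.0729 from limma).

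The 2 tested 3p rows shared reads in the deposited values. In 5 of the 6 libraries both stood at fractions of a read, and their values differed by a whole number of reads within 0.02 reads. The difference of miR-30e-3p minus miR-30a-3p was 16 reads in pellet 1, -15 reads in pellet 2, 0 reads in pellet 3, -1 read in supernatant 2 and 3 reads in supernatant 3. In supernatant 1 it was -0.33 reads. In pellet 3 both rows thus held 6.50 reads, and their RPM were equal. The single values of these 2 rows are therefore uncertain. Their sum does not depend on how reads were divided between them, but it can still change with the mapping. In supernatant 2 miR-30a-3p and miR-30e-3p held 6.60 and 5.60 reads in the human mapping and 6.60 and 3.10 reads in the mouse mapping. Over all members, 15 of 21 values above 0 in 5p rows were whole reads, against 2 of 15 in 3p rows. All values of miR-30d-5p, miR-30b-5p and miR-30c-5p above 0 were whole. The 5p values that were not whole belong to miR-30a-5p and miR-30e-5p. In pellet 2 alone both of these stood at fractions (73.4 and 3.50 reads), and there their difference was not whole (-69.86 reads).

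The other 5 rows had few reads outside of pellet 1. hsa-miR-30c-5p, from a cattle gene next to that of miR-30e, stood at 25.8 RPM in pellet 1 (172 reads), 6.92 RPM in pellet 3 (6 reads) and 0.649 RPM in supernatant 3 (2 reads), and was listed at 0 in pellet 2 and in supernatants 1 and 2. Pellet 2 could have shown 1.91 RPM or more, so its level there was below those of the other pellets. hsa-miR-30b-5p was seen in pellet 1 alone, at 5.71 RPM (38 reads), where miR-30d-5p of the neighbouring gene had 84.6 times as many reads. In pellet 3 a count of 0 allows up to 3.46 RPM, not far below that level. hsa-miR-30d-3p was seen in pellet 1 alone at 1.35 RPM (9 reads), hsa-miR-30c-1-3p in pellet 3 alone at 0.314 RPM (0.273 reads), and hsa-miR-30b-3p in supernatant 1 alone at 0.167 RPM (0.896 reads). These 5 rows did not reach 1 RPM in 3 libraries and were not tested.

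Read as a whole, 3 of the 5 tested members were higher in the pellets (miR-30d-5p, miR-30a-5p and miR-30e-5p) and 0 were lower. Over all 153 tested names, 47.7% were higher in the pellets and 0% lower (0 also at an unadjusted p under 0.05), so the family's count is not far from the background. In 4 of the 5 tested members the fractions did not overlap, where 66.7% of all tested names showed the same. A filter that asks for 1 RPM in 3 libraries can be met by 3 pellets alone, so these members could pass it through the fraction where they were high. The median log2 fold change was 2.70 over the 5 members and 2.05 over all tested names. Relative to that median of all names, the log2 fold changes were 2.58 for miR-30d-5p, 1.42 for miR-30e-5p, 0.65 for miR-30a-5p, -0.14 for miR-30a-3p and -0.54 for miR-30e-3p. The gap of miR-30a-3p was smaller than its standard error of 0.75. It turned with a pseudocount of 0.1 RPM (2.49 against a median of 2.40) and without a filter on low values (1.90 against 0.57). Leaving out pellet 1 (2.18 against 1.72) or supernatant 1 (2.37 against 1.97) turned it as well. The gaps of miR-30e-3p and miR-30a-5p were also smaller than their standard errors of 0.64 and 0.74. That of miR-30e-3p turned without a filter on low values (1.51 against 0.57).

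The calls rested on the supernatants as well. Without supernatant 1 or supernatant 2, 0 of the 153 names passed by limma, miR-30 included (adjusted p of miR-30d-5p 0.0878 and 0.0963), although 67 and 61 names, 4 and 2 of them members, had an unadjusted p under 0.05, and without supernatant 3 miR-30d-5p alone of the family passed. With median-of-ratios scaling, which lowers the median of all names from 2.05 to 0.39 and gives 1 name higher and 5 lower over all names, 0 members passed and 1 had an unadjusted p under 0.05, the log2 fold change of miR-30d-5p was 2.97 (adjusted p = 0.239) and that of miR-30e-3p turned to -0.10.

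**Figure D2:**
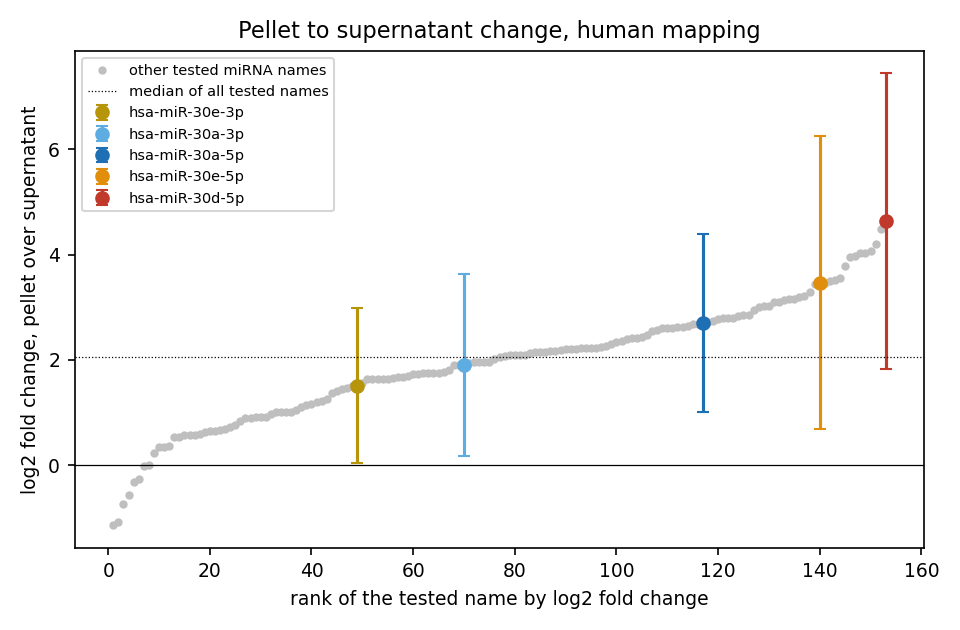
Log2 fold change of pellet over supernatant on the log2(RPM + 1) scale for the 153 tested names of the human mapping, ordered from lowest to highest, with the 5 tested miR-30 rows in colour and their 95% intervals from limma as bars. miR-30d-5p stood last at 4.63, the 3p rows lay below the dotted median of 2.05, and all 5 intervals lay above 0.

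The make-up of the family changed from library to library. miR-30d-5p held 78.3%, 23.0% and 58.1% of the family's RPM in pellets 1, 2 and 3, and 1.64%, 39.7% and 60.8% in supernatants 1, 2 and 3. miR-30a-5p held 48.3% in pellet 2 and at most 22.0% in any other library. The 3p rows together held 2.59%, 26.4% and 9.07% in pellets 1, 2 and 3, and 76.3%, 34.6% and 9.60% in supernatants 1, 2 and 3. Supernatant 1 was the only library whose miR-30 reads were mainly 3p, and it held 1 read of miR-30d-5p. The share of 3p rows averaged 12.7% ± 12.3 for pellets and 40.2% ± 33.7 for supernatants, and the fractions overlapped.

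**Figure D3:**
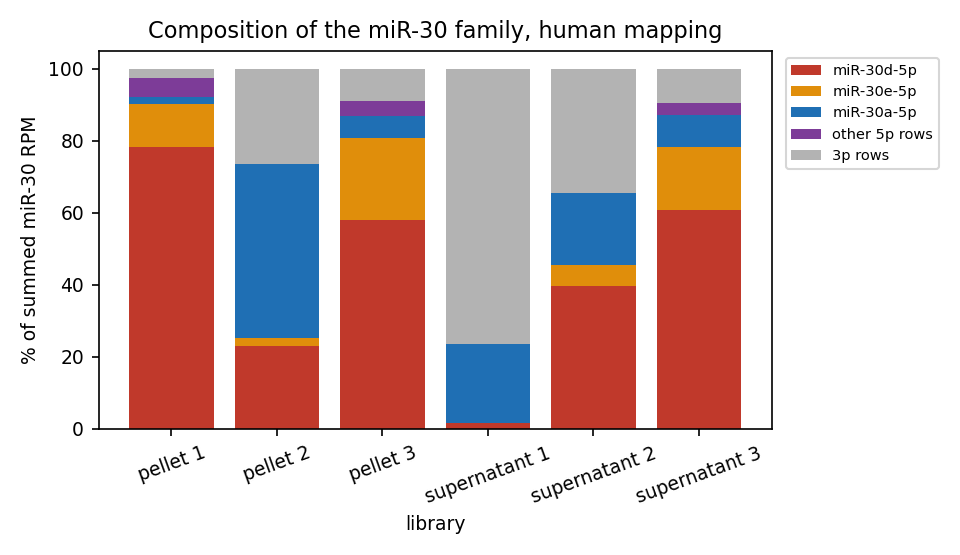
Share of each miR-30 row in the summed miR-30 RPM of a library, in percent, human mapping, with the rarer 5p rows and all 3p rows pooled. miR-30d-5p made up 78.3% in pellet 1 and 1.64% in supernatant 1, and the 3p rows 2.59% and 76.3%.

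Ratios between members within a library were compared between fractions by exact permutation tests, two-sided, where 3 libraries against 3 cannot give a p under 0.10. The added 1 RPM draws ratios of low values towards 0. For the 3 pairs among the tested 5p members, the log2 ratio of (RPM + 1) of miR-30d-5p to miR-30e-5p was 2.70, 2.85 and 1.34 in pellets 1, 2 and 3 and 0.25, 1.60 and 1.54 in supernatants 1, 2 and 3. miR-30d-5p was thus above miR-30e-5p in 5 libraries, while in supernatant 1 the values rest on 1 read against 0 and their order is not known. The difference between fractions was 1.17 (exact permutation test, p = 0.30, adjusted p = 0.60), and 0.50 with a pseudocount of 0.1 RPM. The ratio of miR-30d-5p to miR-30a-5p was 5.12, -1.03 and 3.12 in the pellets and -1.56, 0.72 and 2.26 in the supernatants, with a difference of 1.93 (exact permutation test, p = 0.40, adjusted p = 0.60). The order of these strands was turned around in pellet 2 and supernatant 1. For miR-30e-5p to miR-30a-5p the ratio ran from -3.89 (pellet 2) to 2.42 (pellet 1), with a difference of 0.76 (exact permutation test, p = 0.80, adjusted p = 0.80). That difference was -0.40 without pellet 1, -0.074 without pellet 3 and 1.79 with a pseudocount of 0.1 RPM. None of the 3 pairs separated the fractions, whereas 2 pairs did so without pellet 2 and 1 without pellet 3.

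For the 2 hairpins with both arms tested, the strands were compared in the same way, with the 3p values uncertain because of the shared reads. The log2 ratio of miR-30a-3p to miR-30a-5p was -0.97, -1.36 and -0.42 in pellets 1, 2 and 3 and 0.59, -0.054 and -0.91 in supernatants 1, 2 and 3, a difference of -0.80 (exact permutation test, p = 0.20, adjusted p = 0.30). That of miR-30e-3p to miR-30e-5p was -2.97, 1.48 and -2.20 in the pellets and 2.38, 0.68 and -0.89 in the supernatants, a difference of -1.95 (exact permutation test, p = 0.30, adjusted p = 0.30), and -3.04 with a pseudocount of 0.1 RPM. The 3p strand of miR-30e was above its 5p strand in pellet 2 and in supernatants 1 and 2. Without pellet 2 the difference was -3.31, and without pellet 2, pellet 3 or supernatant 3 in turn, 1 of the 2 arm ratios separated the fractions.

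**Figure D4:**
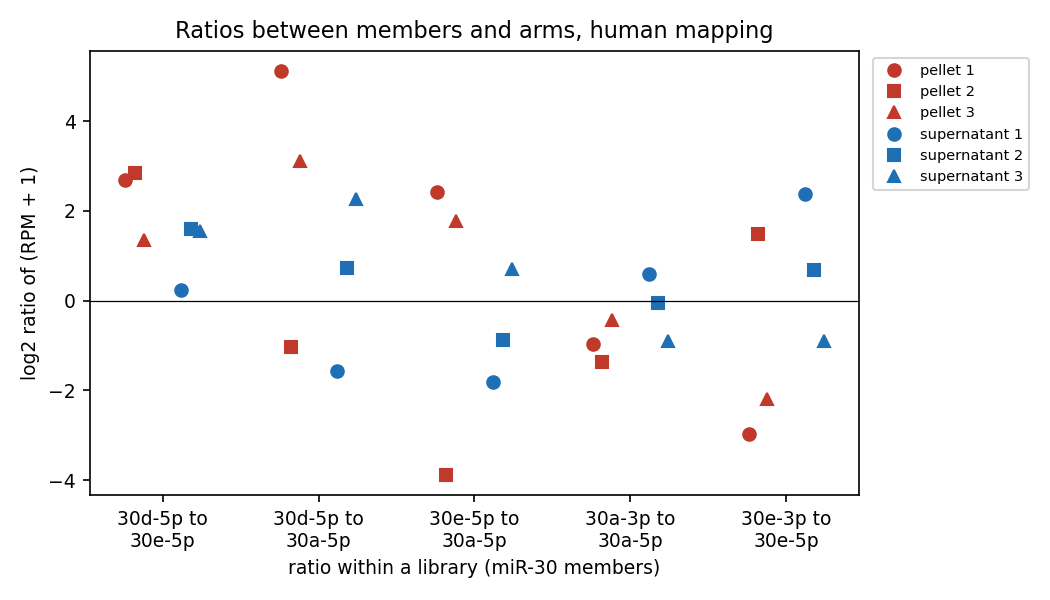
Log2 ratios of (RPM + 1) between miR-30 members and between arms within each library of the human mapping, pellets in red and supernatants in blue, with a marker shape for each replicate number. The ratios of miR-30d-5p to miR-30a-5p ran from -1.56 to 5.12, and none of the 5 ratios separated pellets from supernatants.

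Against abundant miRNAs of other families, 6 ratios were compared. miR-30d-5p relative to miR-122-5p was higher in every pellet than in any supernatant, with a log2 difference of 3.80 (exact permutation test, p = 0.10, adjusted p = 0.45). In the mouse mapping the same ratio overlapped between fractions, with a difference of 3.64 (exact permutation test, p = 0.20). Relative to let-7a-5p, of the growth-restraining let-7 family, the difference was 1.84, and relative to miR-148a-3p, a miRNA abundant in liver, it was 2.89 (exact permutation test, p = 0.30 and adjusted p = 0.45 each). For miR-30e-5p the differences were 2.63 to miR-122-5p, 0.67 to let-7a-5p and 1.73 to miR-148a-3p (exact permutation test, p = 0.20, 0.70 and 0.40). Without pellet 2 all 6 ratios separated the fractions, with differences from 1.86 to 4.75, while without supernatant 3 2 of them did.

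In pellet 2 the order of the members differed from that in pellets 1 and 3. Taking pellet 2 minus the mean of pellets 1 and 3 on the log2(RPM + 1) scale, miR-30e-5p stood at -4.06 and miR-30d-5p at -3.23, the ranks 5 and 9 from the lowest of 153 names. miR-30e-3p stood at 0.00072, miR-30a-3p at 1.26 and miR-30a-5p at 1.92, where the median of all names was 0.14. Of the miRNA groups compared, none was lowest there among the pellets. The 9 let-7 names summed to 1795, 1089 and 825 RPM in pellets 1, 2 and 3, and the 3 names miR-148a-3p, miR-148b-3p and miR-152-3p to 1028, 1794 and 482 RPM. Of the red blood cell list, 6 of 7 names were listed and none was at 0 in all libraries, and they summed to 1320, 1061 and 424 RPM in pellets 1, 2 and 3 and to 57.9 to 113.5 RPM in the supernatants. Of the platelet and leukocyte list, 4 of 6 names were listed, at 384, 393 and 184 RPM in the pellets and 27.1 to 57.1 RPM in the supernatants. Among them miR-223-3p was at 0 in all 3 supernatants, but it did not reach 1 RPM in 3 libraries and was not tested. In the mouse mapping it was seen in pellet 2 alone, at 0.407 RPM. The liver list, with 3 of 4 names listed, held 49661 to 92899 RPM in the pellets and 30991 to 40809 RPM in the supernatants. The summed markers of blood cells and liver were thus higher in the pellets, as miR-30 was. So were all listed miRNAs together, at 63318 to 128969 RPM in the pellets and 52124 to 58472 RPM in the supernatants. By limma in the human mapping, 3 of 5 tested red blood cell names, 1 of 3 liver names and 1 of 3 platelet and leukocyte names were higher. Over all tested names 47.7% were higher. The lists had medians of 2.68, 2.21 and 2.10 on the log2 scale, beside 2.05 over all names. miR-122-5p of the liver list did not pass in the human mapping, at 0.83 (adjusted p = 0.0510 from limma). It passed in the mouse mapping, at 0.98 (adjusted p = 0.0238 from limma). There 5 of 6 tested red blood cell names and 3 of 3 liver names were higher, beside 55.9% of all tested names. The part of these markers in the result was not tested.

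Outside the family, the names most like hsa-miR-30d-5p over the 6 libraries were miR-92b-3p (Pearson r = 0.97), miR-17-5p (0.96), miR-485-5p (0.96), miR-103a-3p (0.95) and miR-125a-5p (0.95). Those most like hsa-miR-30e-5p were miR-99b-3p, miR-218-5p and miR-17-5p (0.97 each), miR-7-5p (0.96) and miR-126-3p (0.96). Among these, miR-218-5p stood at 399, 1.91 and 80.3 RPM in pellets 1, 2 and 3 and at 1.49, 0.783 and 15.9 RPM in supernatants 1, 2 and 3, with the low pellet 2 and the high supernatant 3 of miR-30e-5p. Inside the family, miR-30d-5p and miR-30e-5p had an r of 0.96, miR-30a-3p and miR-30a-5p of 0.91, miR-30e-3p and miR-30e-5p of 0.59, and miR-30d-5p and miR-30a-5p of 0.56. The 6 points are in 2 fractions and share depth and scaling, so r describes these libraries only.

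As conserved families for comparison, 6 of 9 tested let-7 names were higher in the pellets and 0 lower. Their median on the log2 scale was 2.10. All 3 tested names of the miR-148 family were higher in the human mapping, with a median of 1.75, and 2 of 3 in the mouse mapping. In the miR-30 family 3 of 5 were higher, with a median of 2.70. Over all human names 47.7% were higher, with a median of 2.05. The difference between families was not tested.

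The mouse mapping held the same reads under mouse names and is no second experiment. Of the 35 values above 0 in either mapping for the 9 names listed in both, 19 stood for the same number of reads within 0.02 reads. These include all values of miR-30d-5p, for example 3215 reads in pellet 1 and 1 read in supernatant 1. In RPM, mmu-miR-30d-5p stood at 438, 21.4 and 89.0 in pellets 1, 2 and 3 and at 0.167, 3.24 and 11.1 in supernatants 1, 2 and 3, as the same reads were divided by a larger number of mapped reads. Where the mappings differed most in proportion, miR-30e-5p in pellet 2 held 3.50 reads in the human and 7 in the mouse mapping, and miR-30e-3p in supernatant 2 held 5.60 and 3.10 reads. The mouse row of miR-30e-5p accordingly had no overlap between fractions, with 66.6, 4.27 and 34.6 RPM in pellets 1, 2 and 3 and 0, 0.463 and 3.24 RPM in supernatants 1, 2 and 3.

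By limma, the same 3 strands were higher in the pellets in the mouse mapping. The log2 fold changes were 4.62 for mmu-miR-30d-5p (standard error 1.20, adjusted p = 0.0207), 3.67 for mmu-miR-30e-5p (standard error 1.06, adjusted p = 0.0258) and 2.69 for mmu-miR-30a-5p (standard error 0.76, adjusted p = 0.0248). The 3p rows did not pass, at 1.90 for mmu-miR-30a-3p (adjusted p = 0.0546) and 1.67 for mmu-miR-30e-3p (adjusted p = 0.0538). The family's count of 3 of 5 higher and 0 lower stands beside 55.9% higher and 0% lower over all 143 tested mouse names. All 5 tested mouse rows had no overlap between fractions, beside 73.4% of all tested names. Without supernatant 1 or 2, 0 of the 143 mouse names passed by limma either, with 65 and 60 names at an unadjusted p under 0.05.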

How the data were processed

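Small RNA libraries of 3 pellets and 3 supernatants of FBS were sequenced with single-end reads of 50 nt. The authors deposited RPM values per miRNA, normalized to the mapped reads of each library, for the human genome (hg19, exceRpt V2.2.8) and the mouse genome (mm10, pipeline not given in the sources used here). The tables of RNA classes were not used. Members and lists were chosen with earlier results of these data known. Whole reads were not recovered for most rows, so no count model was fitted, and the depth is an estimate from the smallest value shared by at least 6 names.

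The log2(RPM + 1) values of each miRNA table were fitted by limma 3.58.1 (R 4.3.3) over all names that reached 1 RPM in 3 or more libraries, with a variance trend, no covariate, and Benjamini-Hochberg adjustment at 0.05, two-sided. On this scale the changes of low rows are understated. Ratios were tested by exact permutation with scipy 1.17.1, adjusted within each set of ratios. All members are given, in full where a fraction averaged 10 RPM or more in the human mapping or both arms were compared, with the 5 names outside the family of highest Pearson r. The limma steps were run on simulated data with raised levels, a single spread per fraction and changes in both directions. That check does not cover rows of few reads or a shift of most names in the same direction. Alternatives were pseudocounts of 0.1 and 10 RPM, filters, scalings, a replicate block and leaving out each library.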

Additional observations from a re-analysis of the deposited data

How the results depend on the processing

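Counts of members called higher in the pellets (3 in each mapping, with 0 lower in all settings) fell to 0 in both mappings with a pseudocount of 10 RPM, without a filter on low values, when scaled to miRNAs other than miR-122-5p and miR-1246, and with median-of-ratios scaling, where 0 to 5 members had an unadjusted p under 0.05 by limma. Scaled to all listed miRNAs the count was 1 in the human and 0 in the mouse mapping. With a filter of 10 RPM 1 mouse member was left and passed. Leaving out a library gave 0 to 3 in each mapping. Whether libraries of 1 number share a batch of FBS is not given by the labels, and the values cannot settle it. In the human mapping the r of deviations was -0.19, 0.27 and 0.26 for numbers 1, 2 and 3. There 2 of 6 libraries were closest to their own number, and 3 of 6 in the mouse mapping. The main fit used no pairs. With a replicate block the count stayed at 3 in each mapping. In the human mapping the adjusted p from limma was then 0.000122 for miR-30d-5p and 0.00696 for miR-30e-5p. It was 0.0268 for miR-30a-5p, 0.104 for miR-30a-3p and 0.195 for miR-30e-3p. These values lean on a spread that limma shares over all names, not on a row's own pairs alone. For miR-30d-5p the pairs were uneven, at 483 against 0.186 RPM, 22.3 against 3.65 RPM and 97.99 against 12.3 RPM for numbers 1, 2 and 3. As the labels give no pairs, the small p-values add no support to the main fit.

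Over all names, 73 human and 80 mouse names were higher and 0 lower as reported, against 38 and 34 higher with a pseudocount of 10 RPM, 11 and 10 without a filter, and 37 and 9 scaled to all listed miRNAs, where 1 human name was lower. With either of the other scalings, 1 name was higher in each mapping and 5 human and 7 mouse names were lower. miR-30e-3p turned to -0.19 on the log2 scale in the human mapping when scaled to miRNAs other than miR-122-5p and miR-1246, and to -0.10 with median-of-ratios scaling. With a pseudocount of 10 RPM, 1 of 3 member ratios, 1 of 2 arm ratios and 0 of 6 reference ratios separated the fractions, against 0, 0 and 1 as reported, and the differences of miR-30e-5p to let-7a-5p and to miR-148a-3p turned to -0.88 and -0.0035. In the mouse mapping 0 reference ratios did. Taken as pairs (replicate block) in the human mapping, 2 reference ratios had the same sign in all 3 pairs, which is another criterion. Leaving out a library gave 0 to 2 member, 0 to 1 arm and 1 to 6 reference ratios that separated the fractions. It moved the difference of miR-30e-5p to miR-30a-5p between -0.40 and 2.76 and that to let-7a-5p between -0.10 and 1.86. The pellet to supernatant ratio of the family's share was 11.6 over all listed miRNAs and 4.25 without miR-122-5p and miR-1246. The causes were not tested. Depth limits the rare rows, since 1 read is worth 1.15 RPM in pellet 3.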
